A study of Homo sapiens with 84 samples.

Results

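Kyse30 cells that had received 9 nM EGF (EGF high) for 72 h were compared with untreated Kyse30 cells of the same time. Line, agent and duration as labelled set the comparison, which held 6 of the 84 libraries of the series, namely EGF high replicates 1, 3 and 4 and untreated replicates 1, 2 and 3, with all genes compared. Kyse30 is an established esophageal squamous cell carcinoma line, described in the study as carrying an amplified EGFR gene. Cells of every group were plated with serum, serum-starved for 24 h and then kept serum-free, with or without the added proteins, so that the untreated cells had also been without serum throughout. Further groups of the same line set this response in context. They were EGF high and untreated cells at 6 h (n = 4 and n = 3), and at 72 h cells given 1.8 nM EGF (EGF low, n = 4), EGF high together with EpEX (n = 3) or Fc (n = 3). EpEX is the extracellular part of the cell adhesion molecule EpCAM, added as a fusion with the Fc part of an antibody, and Fc alone served as its control, also at 6 h (n = 3). Levels of chosen genes are also shown in untreated cells at 0 h (n = 3) and with EpEX alone at 72 h (n = 3). The same holds for EGF low (n = 4) and EGF high plus EpEX (n = 4) at 6 h. All libraries came from 1 line, and no source stated whether replicates were separate cultures, so p-values measured the spread between these libraries, which may be technical.

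EGF binds the receptor tyrosine kinase EGFR, which signals through RAS and the kinases MEK and ERK and through PI3K and AKT. The signal induces genes of the AP-1 transcription factor family early and is restrained by induced phosphatases and by loss of the receptor from the cell surface. Stratified squamous epithelium holds dividing basal cells on a laminin-332 matrix through hemidesmosomes built on integrin alpha6 beta4. Cells that leave this layer change their keratins and build a cornified envelope from cross-linked proteins. In epithelial-to-mesenchymal transition (EMT) carcinoma cells lose epithelial traits and gain motility and mesenchymal ones, and partial EMT (pEMT) names states that keep traits of both. The comparison asked what a sustained, strong EGF stimulus had changed in these cells by 72 h.

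The libraries measured the 3′ ends of transcripts, so that a count did not scale with transcript length, and levels are given in CPM, counts scaled to a common library total. The untreated libraries held 10478501, 4831395 and 5049067 counts on genes and the EGF high libraries 9499780, 5993131 and 7456736, at which 3 counts corresponded to 0.286 to 0.621 CPM before scaling. Untreated replicate 2 had 15.3% of all reads in its file on no annotated gene, against 6.3% to 7.25% in the rest of the libraries compared. EGF high at 72 h had no replicate 2. In its gene levels, EGF high replicate 1 stood apart. Its rank correlation was 0.918 and 0.928 with the other EGF high libraries, which reached 0.955 with each other, against 0.947 to 0.959 among the untreated libraries, and a chi-square test of counts gave 59.9 and 63.9 per degree of freedom against 19.3 between those 2. Of the 12 markers fixed for squamous epithelial cells, 11 were measured and summed to 1719 to 2270 CPM in untreated and 3259 to 4207 CPM in EGF high libraries. The basal keratins KRT5 (1.52 to 3.14 CPM) and KRT14 (0.191 to 34.7 CPM) and the squamous lineage factor TP63 (2.45 to 40.1 CPM) were low for that label, and the desmosomal PKP1 stood at 6 counts over the untreated and 7 over the EGF high libraries. Of 8 fibroblast markers, 3 were measured and summed to 14.6 to 18.7 CPM in untreated and 17.8 to 32.0 CPM in EGF high libraries. Of 6 endothelial markers 1 was measured, CDH5, at 0.204 to 2.51 CPM and 0 to 0.535 CPM, and VWF had 1 and 48 counts over the 2 groups, while the leukocyte markers PTPRC, CD3E and MS4A1 and the endothelial markers PECAM1 and CLDN5 had no count in any of the 6 libraries. In bulk samples, fewer cells of a type and less RNA per cell cannot be told apart.

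EGF high changed 951 of the 15350 genes tested at 72 h, 466 up and 485 down (6.2%, 3.04% and 3.16%). A differentially expressed gene (DEG) had an adjusted p-value of at most 0.05 by edgeR's quasi-likelihood test with Benjamini-Hochberg adjustment and an absolute log2FC above 0.5. The median log2FC was 1.26 among DEGs up and -1.55 among DEGs down, against -0.03 over all genes tested. DEGs up were the more abundant, with a median level of 67.4 CPM against 23.0 CPM for DEGs down and 13.5 CPM for all genes tested. The 3 EGF high libraries all lay above the 3 untreated ones for 438 of the 466 DEGs up and all below for 468 of the 485 DEGs down, where 10.9% and 12% of all genes tested did so. Changes above 4-fold were reached by 83 DEGs up and 143 DEGs down. Without EGF high replicate 1, 655 genes were called (279 up and 376 down), of which 541 were among the 951. The count was 475 without untreated replicate 2 and 589 without untreated replicate 3, and 502 when the spread was estimated from the 6 libraries alone.

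**Figure D1:**
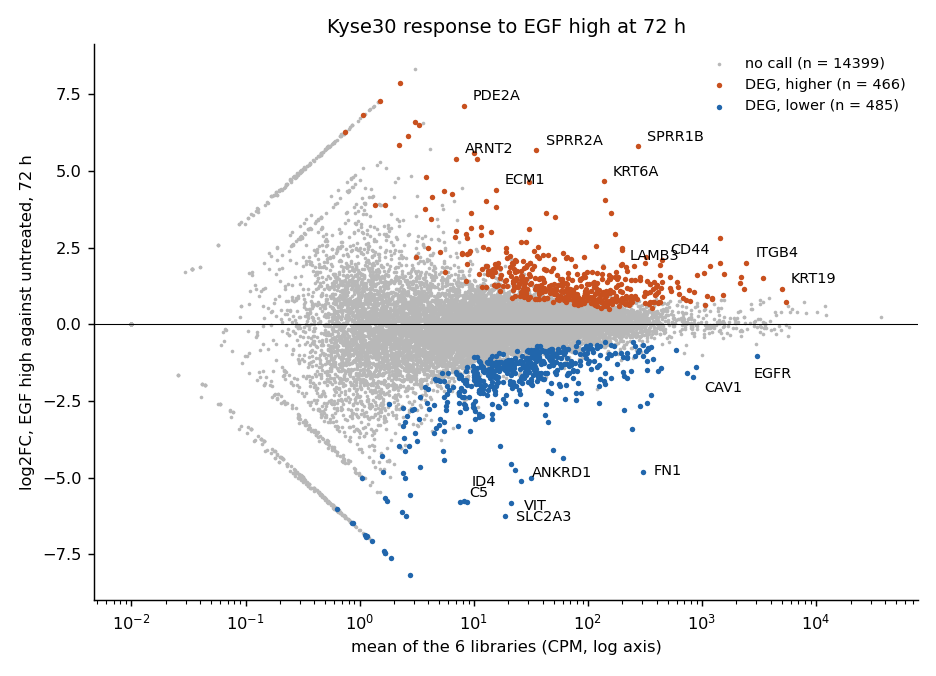
Each point is 1 of the 15350 genes tested, at its mean level over the 6 libraries (CPM, log axis) and its log2FC of EGF high against untreated at 72 h, with DEGs up and down coloured and genes discussed in the text named. SPRR1B, SPRR2A and KRT6A lie at the upper edge with log2FC values of 5.81, 5.67 and 4.66, and SLC2A3 and FN1 at the lower edge with -6.24 and -4.80.

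Cornified envelope genes were among the strongest rises. Of the 17 measured members of that list, 5 rose by edgeR (29.4% up, against 3.04% of all genes tested), with a median log2FC of 0.94. DESeq2 called 6 up, and none fell by either method. SPRR1B encodes a small proline-rich protein that is cross-linked into the envelope. It stood at 8.56, 10.5 and 9.82 CPM in untreated replicates 1, 2 and 3 and at 668, 446 and 495 CPM in EGF high replicates 1, 3 and 4, an order in which library values are given throughout (log2FC = 5.81 ± 0.50, adjusted p = 1.60e-10). The groups were separated by a wide gap, and the EGF high libraries lay close together. SPRR2A stood at 0.837, 0.954 and 2.45 CPM untreated and 132, 39.2 and 37.4 CPM with EGF high (log2FC = 5.67 ± 0.88, adjusted p = 3.34e-05, with a log2FC of 4.81 without EGF high replicate 1 and 6.27 without untreated replicate 3). SPRR3, already well expressed without EGF, stood at 67.6, 61.6 and 50.9 CPM and 534, 321 and 152 CPM (log2FC = 2.48 ± 0.50, adjusted p = 0.00103). SPRR2E (log2FC = 5.38) and the cytolinker envoplakin, EVPL (log2FC = 0.83), completed the 5. Copies of the SPRR2 family are nearly identical and reads were counted only where they mapped uniquely, so the share of each copy is uncertain. The remaining members apart from CRCT1 ran from -0.90 (ABCA12, a lipid transporter) to 4.01 (SPRR1A, a close relative of SPRR1B, adjusted p = 0.0669) without a call by edgeR. CRCT1 had 0 counts over the untreated and 133 over the EGF high libraries and was not called by edgeR either. Nor was the classical envelope protein involucrin, IVL (log2FC = 0.94). LORICRIN had no count in any of the 6 libraries. SPRR2E was not called without untreated replicate 2 or 3 or EGF high replicate 3 (adjusted p = 0.0724 to 0.0986). The list held 3 calls up without untreated replicate 2, untreated replicate 3 or EGF high replicate 3. With Fc as the control, 1 member was called down.

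The SPRR genes lie in the epidermal differentiation complex, a stretch of chromosome 1 that also holds most S100 genes. Between S100A10 and S100A1 (GRCh38, chr1:151982915-153632039) 26 genes were tested, of which 9 rose and none fell, or 34.6% against 3.04% of all genes tested. They were SPRR1B, SPRR2A, SPRR2E, SPRR3, S100A4, S100A9, S100A11, S100A13 and S100A16. S100 genes encode small calcium-binding proteins of epithelia and inflammation. All 12 measured members of the S100 list had a positive log2FC with a median of 1.12, and 6 were called up (50%, against 3.04% of all genes tested). S100P, which lies outside the complex on chromosome 4, stood at 28.1, 33.01 and 9.2 CPM untreated and 369, 374 and 134 CPM with EGF high (log2FC = 3.63 ± 0.65, adjusted p = 2.42e-04). S100A9, a subunit of calprotectin, stood at 20.9, 29.6 and 9.41 CPM and 172, 84.5 and 47.7 CPM (log2FC = 2.34 ± 0.60, adjusted p = 0.0109), and its partner S100A8 had a log2FC of 2.34 without a call. S100A16 rose with little spread, from 259, 239 and 210.0 CPM to 590.4, 523 and 544 CPM (log2FC = 1.23 ± 0.18, adjusted p = 1.11e-05). S100A11, the most abundant of those called, rose from 1173, 818 and 1088 CPM to 1866, 1719.5 and 2455 CPM (log2FC = 0.97 ± 0.25, adjusted p = 0.013). S100A9 was not called without untreated replicate 3 or EGF high replicate 1 (adjusted p = 0.0851 to 0.106, with a log2FC of 1.73 in the last case). S100A4 was not called without untreated replicate 2 or 3 or EGF high replicate 3 (adjusted p = 0.051 to 0.14). The list held 3 calls without untreated replicate 2.

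Promoter stretches of 3 SPRR genes and of 2 laminin-332 chains, which also rose (values below), are shown because each holds the AP-1 motif TGANTCA, the binding sequence of FOS and JUN dimers, in the 250 bases before the annotated start. The sequences are those of RefSeq (GRCh38.p14), written 5′ to 3′ along the gene, with capitals marking the motif. They are SPRR1B at chr1:153031032-153031158, plus strand, SPRR2A at chr1:153057643-153057762, minus strand, SPRR3 at chr1:153001519-153001645, plus strand, LAMB3 at chr1:209651375-209651501, minus strand, and LAMA3 at chr18:23872891-23873017, plus strand.
SPRR1B: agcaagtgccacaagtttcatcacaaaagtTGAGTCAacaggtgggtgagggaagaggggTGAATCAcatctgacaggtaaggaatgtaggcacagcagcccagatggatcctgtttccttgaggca
SPRR2A: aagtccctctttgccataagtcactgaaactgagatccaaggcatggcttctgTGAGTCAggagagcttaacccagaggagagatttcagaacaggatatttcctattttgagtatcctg
SPRR3: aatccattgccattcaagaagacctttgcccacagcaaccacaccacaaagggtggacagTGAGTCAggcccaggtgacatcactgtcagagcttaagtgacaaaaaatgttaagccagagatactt
LAMB3: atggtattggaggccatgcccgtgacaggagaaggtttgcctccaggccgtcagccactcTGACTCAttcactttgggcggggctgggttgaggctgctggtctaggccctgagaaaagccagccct
LAMA3: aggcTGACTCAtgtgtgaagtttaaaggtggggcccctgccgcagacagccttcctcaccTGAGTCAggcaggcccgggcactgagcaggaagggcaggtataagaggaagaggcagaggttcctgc
Promoters of 300 bases were at hand for 10322 of the genes tested. The AP-1 motif, which reads the same on both strands, occurred in 5.31% of them, in 9.68% of the 341 promoters of DEGs up and in 4.71% of the 361 promoters of DEGs down. It occurred in 7 of the 11 promoters at hand for tested cornified envelope genes (63.6%), but in none of the 12 of S100 genes or the 4 of keratins. These shares are a description of the sequence, with no test, and a match is not a measured binding site.

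Keratins form the intermediate filaments of epithelia. Of 17 measured keratins, 6 rose by edgeR (35.3% up, against 3.04% of all genes tested), with a median log2FC of 1.17. DESeq2 called 7 up, and none fell by either method. The other 11 were not called by edgeR. Of these, 4 had an unadjusted p below 0.05 each, namely KRT4, KRT7, KRT23 and KRT80, with log2FC values of -2.10, -0.77, -1.73 and -0.97. Keratins were called down in other settings, 3 without a filter on low counts, 2 without EGF high replicate 1 and 1 without EGF high replicate 3, against Fc or with the spread from the 6 libraries alone. In this line the simple-epithelial KRT8, KRT18 and KRT19 were far more abundant than those of stratified epithelium. KRT6A and KRT16, keratins of wounded and hyperproliferative squamous epithelium, rose most. KRT6A stood at 8.46, 8.01 and 15.3 CPM untreated and 346, 116 and 334 CPM with EGF high (log2FC = 4.66 ± 0.73, adjusted p = 4.24e-05). KRT16 stood at 26.6, 7.82 and 13.1 CPM and 407, 179 and 214 CPM (log2FC = 4.05 ± 0.56, adjusted p = 6.07e-06, with a log2FC of 4.68 without untreated replicate 1). KRT6A shares most of its sequence with KRT6B and KRT6C and KRT16 with KRT17, so that the split of reads among these copies is uncertain. KRT6B had 0 counts over the untreated and 63 over the EGF high libraries, without a call, and KRT17 stood at 14.98, 4.39 and 18.4 CPM and 44.9, 22.3 and 109 CPM (log2FC = 2.22 ± 0.54, adjusted p = 0.00777). Among simple keratins, KRT19 rose from 3211, 2569 and 3435 CPM to 6996, 6466 and 7228 CPM (log2FC = 1.17 ± 0.25, adjusted p = 0.00263), with the 3 EGF high libraries within a narrow range. KRT18 stood at 2019, 1599 and 1725 CPM and 7995, 4491 and 2844 CPM (log2FC = 1.52 ± 0.26, adjusted p = 1.69e-04). Its partner KRT8 stood at 1417, 887 and 1073 CPM and 5658, 2360.0 and 1870.4 CPM (log2FC = 1.55 ± 0.29, adjusted p = 4.17e-04, with a log2FC of 0.92 without EGF high replicate 1). For both, EGF high replicate 1 lay well above the other 2 EGF high libraries, and the 2 gene models overlap at one end on opposite strands. The basal KRT5 (1.77, 1.91 and 2.45 CPM and 1.52, 2.32 and 3.14 CPM, adjusted p = 0.93) was not called, nor was KRT14 by edgeR, which was above 3 CPM in EGF high replicate 4 alone, though DESeq2 called it up (adjusted p = 0.0263), as did edgeR with a mean of at least 5 CPM (adjusted p = 0.027) and against Fc (adjusted p = 0.0134). KRT17 was not called without untreated replicate 2 or EGF high replicate 4 (adjusted p = 0.0807 to 0.141, with a log2FC of 1.42 in the last case).

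Chains of laminin-332 and the integrin that holds it rose together. Of the 8 members of this list reported here, 3 rose (37.5%, against 3.04% of all genes tested) and none fell, in every alternative setting tried. They were LAMB3 and LAMA3, which encode laminin chains, and ITGB4, the beta4 subunit of the hemidesmosome. LAMB3 stood at 82.4, 68.5 and 90.2 CPM untreated and 291, 279 and 354 CPM with EGF high (log2FC = 1.94 ± 0.40, adjusted p = 0.00158). LAMA3 stood at 48.8, 21.6 and 24.9 CPM and 65.5, 116 and 124 CPM (log2FC = 1.67 ± 0.37, adjusted p = 0.00311). ITGB4 rose from 1105, 827 and 974 CPM to 3123, 4357 and 4272 CPM (log2FC = 2.02 ± 0.31, adjusted p = 2.73e-05), a gain in mean CPM exceeded only by those of KRT19 and KRT18 among DEGs whose groups did not overlap. ITGA6, which encodes its alpha6 partner, had a log2FC of -0.02, and the other members COL17A1, DST, PLEC and CD151 lay between -0.27 and 0.41. Among the 11 other integrins measured, ITGA3 (122, 99.03 and 103 CPM and 222, 206 and 243 CPM, log2FC = 1.05 ± 0.23, adjusted p = 0.0028) and ITGA2 (313, 293 and 183 CPM and 551, 447 and 551 CPM, log2FC = 0.97 ± 0.24, adjusted p = 0.00842), alpha subunits of laminin and collagen receptors, were called up. These 2 were 18.2% of the other integrins, against 3.04% of all genes tested. ITGA2 was not called without untreated replicate 3 (adjusted p = 0.0924).

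Of 15 measured desmosome and adherens junction genes, 2 rose and 1 fell (13.3% and 6.67%, against 3.04% and 3.16% of all genes tested). P-cadherin, CDH3, rose from 262, 237 and 294 CPM to 496, 623 and 533 CPM (log2FC = 1.06 ± 0.19, adjusted p = 2.64e-04). Plakoglobin, JUP, which links cadherins to filaments, rose from 509, 430.1 and 509 CPM to 831, 929 and 882 CPM (log2FC = 0.87 ± 0.22, adjusted p = 0.0126). E-cadherin, CDH1, stood at 212, 155 and 224 CPM untreated and 44.2, 334 and 252 CPM with EGF high (log2FC = 0.09 ± 0.44, adjusted p = 0.948). EGF high replicate 1 was the lowest and replicates 3 and 4 the highest of the 6 libraries, so no direction can be given for CDH1. EPCAM stood at 211, 157 and 178 CPM and 275, 312 and 177 CPM (adjusted p = 0.244), also with overlap. The tight junction gene CLDN1 fell, from 1405, 1183 and 1286 CPM to 298, 586 and 596 CPM (log2FC = -1.39 ± 0.30, adjusted p = 0.00214), and so did the junctional protein PKP4 (94.2, 105 and 95.9 CPM and 57.1, 65.8 and 57.5 CPM, log2FC = -0.71 ± 0.22, adjusted p = 0.0472). JUP was not called without untreated replicate 2 (adjusted p = 0.0802). PKP4 was not called without untreated replicate 1, 2 or 3 or EGF high replicate 1, 3 or 4 (adjusted p = 0.0794 to 0.172).

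Of 18 measured transcription factors and markers of EMT, none rose by edgeR or DESeq2 and 1, fibronectin, fell, a share of 5.56% near the 3.16% of all genes tested. The median log2FC was -0.08, and 1 member was higher at an unadjusted p below 0.05. VIM, the mesenchymal filament vimentin, stood at 44.2, 40.5 and 34.1 CPM untreated and 61.1, 34.9 and 70.7 CPM with EGF high (log2FC = 0.49, adjusted p = 0.608), with overlapping groups. SNAI2, which encodes the EMT factor Slug, stood at 39.999, 19.3 and 41.9 CPM and 5.6, 12.3 and 40.8 CPM (log2FC = -0.79, adjusted p = 0.419), with EGF high replicate 4 at the untreated level. Without that library SNAI2 was called down (log2FC = -1.92, adjusted p = 0.033), which made 2 calls down in the list. ZEB1 was between 0.382 and 1.96 CPM in all 6 libraries, and SNAI1 and ZEB2 were too low to test. Fibronectin, FN1, a matrix protein listed as mesenchymal, fell from 541, 553 and 654 CPM to 25.9, 13.9 and 22.6 CPM (log2FC = -4.80 ± 0.69, adjusted p = 1.04e-05). In the EMT signature that the study derived from these cells under EGF, 171 genes were tested, of which 69 rose and 72 fell. The study chose that list with these samples in it, so the count is not independent evidence. Of 87 measured pEMT genes, 15 rose and 9 fell (median log2FC 0.16), and of 152 measured genes of the EMT hallmark set, 17 rose and 16 fell (median 0.21), against 3.04% and 3.16% of all genes tested. The signature held 37 calls up and 39 down without untreated replicate 2, 42 up without untreated replicate 3, 42 down without EGF high replicate 3 and 28 down with the spread from the 6 libraries alone. The pEMT list held 9 up without untreated replicate 2 and 5 down without EGF high replicate 1, and the hallmark set 10 down without EGF high replicate 3.

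Genes of matrix turnover moved in both directions. TIMP3, an inhibitor of matrix proteases that is held in the matrix, fell from 351, 389 and 355 CPM to 34.4, 78.6 and 47.1 CPM (log2FC = -2.78 ± 0.53, adjusted p = 6.15e-04). Its secreted relative TIMP1 rose from 97.4, 79.6 and 87.5 CPM to 190.5, 181 and 140.2 CPM (log2FC = 0.95 ± 0.24, adjusted p = 0.0103). The collagenase MMP1 stood at 2.33, 0.763 and 1.02 CPM and 9.33, 4.64 and 38.7 CPM (log2FC = 3.62 ± 0.94, adjusted p = 0.013, with a log2FC of 4.28 without untreated replicate 1), low and uneven among the EGF high libraries, and MMP10 was not called (log2FC = -0.95, adjusted p = 0.711). Of 12 measured genes of the urokinase system and serpins, 4 rose and none fell by edgeR (33.3% up, against 3.04% of all genes tested). DESeq2 called 1 down. SERPINB13 had 57 counts over the untreated and 3 over the EGF high libraries, without a call by edgeR. SERPINB8, called up, had the largest log2FC of the list (3.42). Against Fc it was not called (log2FC = 0.78, adjusted p = 0.592). Nor was it called without untreated replicate 1 or 3 or EGF high replicate 1, or with the spread from the 6 libraries alone (adjusted p = 0.0614 to 0.146). The protease inhibitor SERPINE2 stood at 65.8, 16.2 and 19.4 CPM untreated and 211, 124 and 268 CPM with EGF high (log2FC = 2.55 ± 0.50, adjusted p = 8.15e-04, with a log2FC of 3.51 without untreated replicate 1). SERPINB1, an inhibitor of neutrophil proteases, stood at 30.3, 17.4 and 16.4 CPM and 114, 56.9 and 59.9 CPM (log2FC = 1.84 ± 0.36, adjusted p = 7.22e-04). Maspin, SERPINB5, stood at 73.1, 51.1 and 59.9 CPM and 124, 122 and 229 CPM (log2FC = 1.36 ± 0.33, adjusted p = 0.00624). The matrix protein ECM1 rose from 2.6, 0.382 and 1.02 CPM to 20.99, 24.1 and 44.96 CPM (log2FC = 4.40 ± 1.000, adjusted p = 0.00388, with a log2FC of 5.40 without untreated replicate 1). PLAU and PLAUR, urokinase and its receptor, had log2FC values of 1.08 and 1.92 without a call. TIMP1 was not called without untreated replicate 2 (adjusted p = 0.068). MMP1 was not called without untreated replicate 2 or 3 or EGF high replicate 4 (adjusted p = 0.0716 to 0.197, with a log2FC of 2.31 in the last case). SERPINB5 was not called without untreated replicate 2 or EGF high replicate 4 (adjusted p = 0.0532 to 0.0781).

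**Figure D2:**
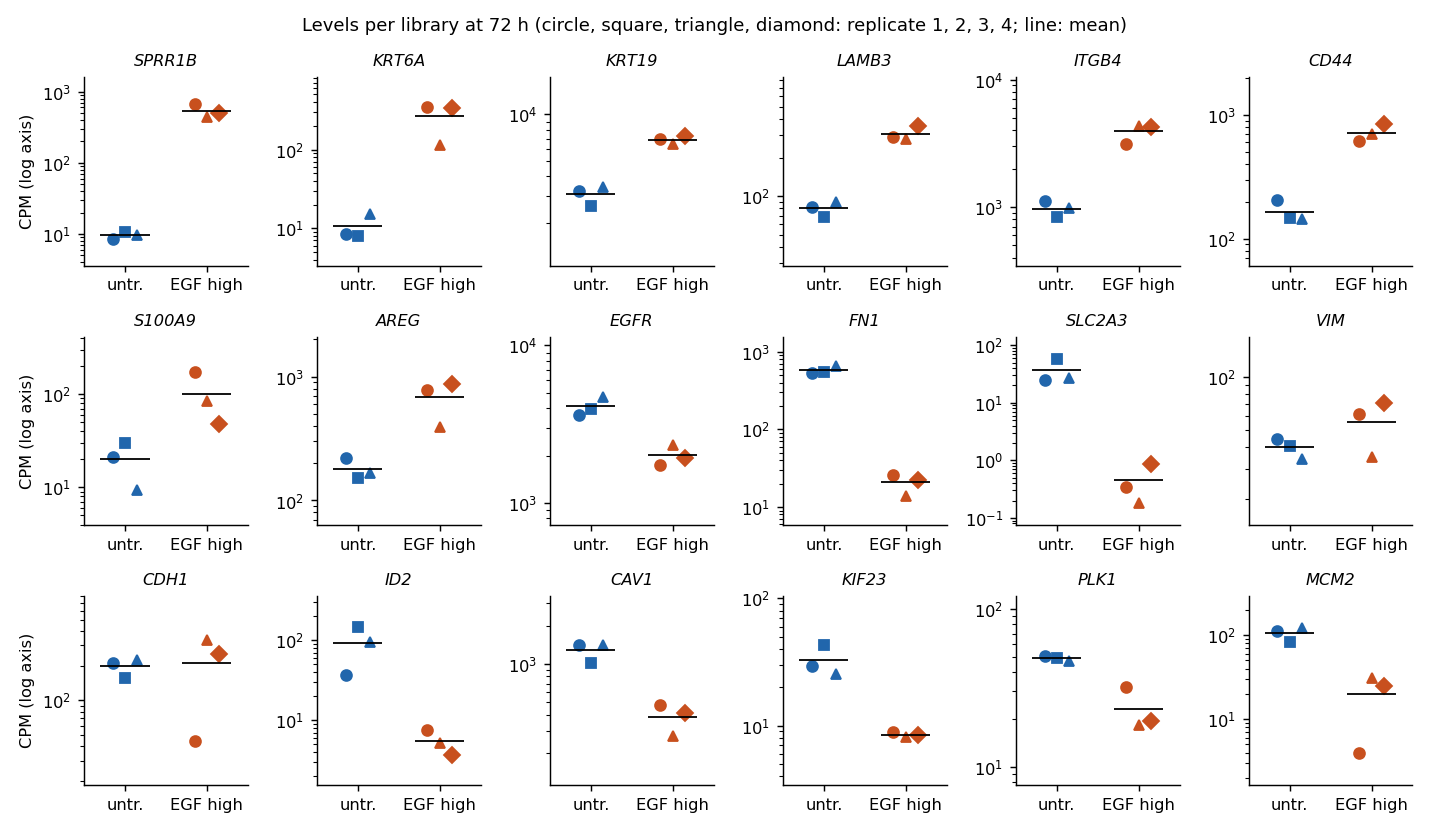
Each panel shows 1 gene, with a point for each of the 6 libraries (CPM, log axis, marker shape by replicate number) and a line at the mean of each group, untreated in blue and EGF high in orange. The groups are separated by a wide gap for SPRR1B, LAMB3, FN1 and ID2, and overlap for VIM and CDH1, where EGF high replicate 1 lies at 44.2 CPM.

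Among actin cytoskeleton and motility genes, 17 of 45 rose and 2 fell (37.8% and 4.44%, against 3.04% and 3.16% of all genes tested), and the median log2FC was 0.48. CD44, the hyaluronan receptor, rose from 205, 147 and 145 CPM to 615, 701 and 841 CPM (log2FC = 2.11 ± 0.26, adjusted p = 7.17e-07). Pleckstrin 2, PLEK2, which promotes spreading at lamellipodia, rose from 18.8, 11.4 and 26.6 CPM to 90.04, 69.2 and 87.1 CPM (log2FC = 2.12 ± 0.34, adjusted p = 6.02e-05). The small GTPase RAC2 rose from 44.2, 48.3 and 43.1 CPM to 96.6, 164 and 162 CPM (log2FC = 1.64 ± 0.34, adjusted p = 0.00173). Smaller changes were seen in abundant structural genes, with log2FC values of 0.64 for ACTB, 0.74 for the cross-linker ACTN1, 0.85 for vinculin, VCL, 0.88 for the bundling protein fascin, FSCN1, and 0.73 for RHOC. ACTG1, cytoplasmic gamma-actin, stood at 4224, 3926 and 4139.9 CPM and 7412, 7093 and 5967 CPM (log2FC = 0.74 ± 0.20, adjusted p = 0.0208). ANXA2, an annexin that binds membranes and actin, stood at 1380.5, 1369 and 1548 CPM and 5289.5, 2442 and 1910.1 CPM (log2FC = 1.17 ± 0.25, adjusted p = 0.00181), highest in EGF high replicate 1. The 2 that fell are caveolae genes. CAV1 fell from 1412, 1012 and 1414 CPM to 473, 270.3 and 413 CPM (log2FC = -1.73 ± 0.22, adjusted p = 2.42e-06). CAV2 fell from 424, 344 and 484 CPM to 228, 248 and 216 CPM (log2FC = -0.85 ± 0.19, adjusted p = 0.00256). ACTG1 was not called without untreated replicate 1, 2 or 3 or EGF high replicate 1 or 3 (adjusted p = 0.0514 to 0.0894). The list had 7 to 10 calls up without EGF high replicate 1, untreated replicate 2 or untreated replicate 3, and 9 with the spread from the 6 libraries alone.

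Of 11 measured genes of the EGF receptor family and its ligands, 2 rose and 2 fell (18.2% each, against 3.04% and 3.16% of all genes tested). EGFR fell from 3638, 3938 and 4725 CPM to 1732, 2347 and 1930.5 CPM (log2FC = -1.03 ± 0.18, adjusted p = 2.34e-04) and stayed among the abundant transcripts of the cells. Its ligands amphiregulin and TGF-alpha were called up. Amphiregulin, AREG, stood at 221, 151 and 167 CPM untreated and 776, 394 and 877 CPM with EGF high (log2FC = 1.93 ± 0.46, adjusted p = 0.00597). TGFA stood at 22.2, 11.3 and 24.5 CPM and 96.1, 48.5 and 56.2 CPM (log2FC = 1.79 ± 0.41, adjusted p = 0.00465). NRG1, a ligand of the related receptors ERBB3 and ERBB4, fell from 17.8, 12.2 and 10.02 CPM to 1.28, 0.178 and 2.43 CPM (log2FC = -3.31 ± 0.65, adjusted p = 7.60e-04, with a log2FC of -4.04 without EGF high replicate 4). HBEGF and EREG, other EGFR ligands, had log2FC values of 0.78 and 0.01, and ERBB2 and ERBB3 of -0.16 and 0.43, none of them called. EPGN, another ligand, had 19 counts over the untreated libraries, 18 of them in replicate 1, and 3 over the EGF high libraries, without a call. TGFA was not called without untreated replicate 2 (adjusted p = 0.0588).

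Of 17 measured genes of ERK feedback, 1 rose and 2 fell by edgeR (5.88% and 11.8%, against 3.04% and 3.16% of all genes tested). By DESeq2, 2 rose and 1 fell, and the median log2FC by edgeR was -0.61. DUSP4, a phosphatase that inactivates ERK in the nucleus, rose from 88.3, 64.9 and 49.3 CPM to 145, 174 and 204 CPM (log2FC = 1.36 ± 0.31, adjusted p = 0.00335). DUSP6, its cytoplasmic counterpart, fell from 364, 231 and 299 CPM to 104, 144 and 169 CPM (log2FC = -1.10 ± 0.32, adjusted p = 0.0281). DUSP1, which acts on stress-activated kinases as well, fell from 114, 86.8 and 127 CPM to 18.4, 54.2 and 42.8 CPM (log2FC = -1.51 ± 0.47, adjusted p = 0.042). The feedback inhibitors SPRY2, SPRY4 and ERRFI1 had log2FC values of -0.61, 1.74 and -0.87 without a call. Of 13 genes of the AP-1 family, 3 fell (23.1%, against 3.16% of all genes tested) and none rose. FOSB fell from 599.6, 681 and 413 CPM to 146, 70.96 and 68.9 CPM (log2FC = -2.57 ± 0.43, adjusted p = 1.06e-04) and FOS from 575, 298 and 596 CPM to 46.4, 91.3 and 94.8 CPM (log2FC = -2.66 ± 0.65, adjusted p = 0.00716). The related stress factor ATF3 fell from 540.4, 519 and 391 CPM to 102, 196 and 215 CPM (log2FC = -1.50 ± 0.43, adjusted p = 0.0269). FOSL1, which encodes FRA1, was not called (log2FC = 1.13, adjusted p = 0.262, or 5.77e-04 without a filter on low counts), and JUN had a log2FC of 0.21. DUSP6 was not called without untreated replicate 1 or 3 or EGF high replicate 1 or 3 (adjusted p = 0.0737 to 0.153). DUSP1 was not called without untreated replicate 1, 2 or 3 or EGF high replicate 1 or 4 (adjusted p = 0.0666 to 0.217). FOS was not called without EGF high replicate 1 (adjusted p = 0.0515). ATF3 was not called without untreated replicate 1 or 2 or EGF high replicate 1 or 3 (adjusted p = 0.056 to 0.154).

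Genes of cell division were lower with EGF high. All 65 mitosis genes had a negative log2FC, with a median of -1.21, and 40 were called down, against 3.16% of all genes tested. Of 48 DNA replication genes, 47 had a negative log2FC, with a median of -0.88, and 17 were called down (35.4%). KIF23, a motor of the cytokinetic midzone, fell from 29.4, 43.3 and 25.6 CPM to 8.86, 8.2 and 8.42 CPM (log2FC = -1.94 ± 0.28, adjusted p = 1.04e-05), with hardly any spread among the EGF high libraries. Separase, ESPL1, which cuts the cohesin that joins sister chromatids, stood at 7.81, 13.4 and 8.59 CPM and 0.583, 1.6 and 2.14 CPM (log2FC = -2.78 ± 0.56, adjusted p = 0.00102). The spindle protein DLGAP5 stood at 24.1, 21.8 and 18.8 CPM and 3.62, 0.713 and 8.71 CPM (log2FC = -2.29 ± 0.42, adjusted p = 3.26e-04, with a log2FC of -3.22 without EGF high replicate 4) and was not called with the spread from the 6 libraries alone (adjusted p = 0.0765). CENPF, a kinetochore protein, fell from 184, 273 and 138 CPM to 68.8, 38.9 and 40.96 CPM (log2FC = -1.997 ± 0.34, adjusted p = 1.25e-04). Cyclin B1, CCNB1, fell from 53.4, 46.7 and 30.9 CPM to 22.3, 14.98 and 17.3 CPM (log2FC = -1.26 ± 0.26, adjusted p = 0.00164). The proliferation marker MKI67 stood at 100.5, 179.9 and 82.8 CPM and 86.9, 17.7 and 38.96 CPM (log2FC = -1.33 ± 0.40, adjusted p = 0.0377, with a log2FC of -2.08 without EGF high replicate 1), where EGF high replicate 1 overlapped the untreated libraries, and the mitotic kinase PLK1 at 50.3, 49.04 and 46.6 CPM and 31.96, 18.4 and 19.4 CPM (log2FC = -1.06 ± 0.32, adjusted p = 0.0365). MKI67 was not called without untreated replicate 1 or 2 or EGF high replicate 3 or 4 (adjusted p = 0.0502 to 0.293). PLK1 was not called without untreated replicate 1, 2 or 3 or EGF high replicate 3 or 4 (adjusted p = 0.0772 to 0.161).

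Among replication genes, thymidine kinase, TK1, stood at 55.4, 55.9 and 55.01 CPM untreated and 24.3, 9.09 and 12.99 CPM with EGF high (log2FC = -1.83 ± 0.26, adjusted p = 1.11e-05). MCM2, a subunit of the replicative helicase, stood at 113, 82.2 and 121 CPM and 3.97, 31.02 and 24.5 CPM (log2FC = -2.42 ± 0.56, adjusted p = 0.00449). GINS2, of the same helicase complex, stood at 24.2, 43.5 and 27.8 CPM and 15.4, 9.81 and 7.71 CPM (log2FC = -1.52 ± 0.32, adjusted p = 0.00158). EGF high replicate 1 was the lowest of the EGF high libraries for MCM2 and the highest for TK1 and GINS2. CDK6, which starts the cycle with D-type cyclins, fell from 437, 440.2 and 390.2 CPM to 241, 274 and 221 CPM (log2FC = -0.79 ± 0.20, adjusted p = 0.00962), while the inhibitor p21, CDKN1A, stood at 104, 75.6 and 135 CPM and 218, 240.3 and 302 CPM without a call (log2FC = 1.27, adjusted p = 0.104, or 0.0159 with the spread from the 6 libraries alone) and MYC overlapped between groups (adjusted p = 0.718). CDK6 was not called without untreated replicate 2 or EGF high replicate 4 (adjusted p = 0.0516 to 0.0588). The number of calls in these lists depended on the libraries. The 40 mitosis calls became 23 without untreated replicate 2, 22 without EGF high replicate 3, 41 without EGF high replicate 1 and 13 with the spread from the 6 libraries alone. The 17 replication calls became 6, 9, 22 and 9 in the same order, and 11 without EGF high replicate 4.

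Promoter stretches of 3 mitosis genes are printed because they show the cell cycle homology region (CHR), a motif bound by the DREAM complex, which represses such genes in resting cells, and by activators in cells about to divide. It was searched as TTTGAA or TTTCGAA on both strands and is marked by capitals, again in RefSeq sequence (GRCh38.p14) 5′ to 3′ along the gene. They are MKI67 at chr10:128126424-128126512, minus strand, ESPL1 at chr12:53268208-53268298, plus strand, and DLGAP5 at chr14:55191629-55191754, minus strand.
MKI67: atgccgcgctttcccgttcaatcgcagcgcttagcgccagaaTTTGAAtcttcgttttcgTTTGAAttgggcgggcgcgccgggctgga
ESPL1: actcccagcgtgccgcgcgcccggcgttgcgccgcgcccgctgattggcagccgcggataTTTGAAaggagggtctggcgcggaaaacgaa
DLGAP5: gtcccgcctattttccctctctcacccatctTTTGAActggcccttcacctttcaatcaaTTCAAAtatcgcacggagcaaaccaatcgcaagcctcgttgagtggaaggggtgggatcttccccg
The CHR letters occurred in 10.9% of all 10322 promoters, in 9.68% of those of DEGs up and in 23.5% of those of DEGs down. Among mitosis genes with a promoter at hand, 36 of 55 held them (65.5%), and none of the 55 held the AP-1 motif. The E2F motif, searched as TTTCGCGC or TTTGGCGC on both strands, occurred in 1.81% of all promoters, in 0.293% of those of DEGs up and in 4.43% of those of DEGs down, and in 11 of 41 promoters of replication genes (26.8%). As above, these shares carry no test.

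**Figure D3:**
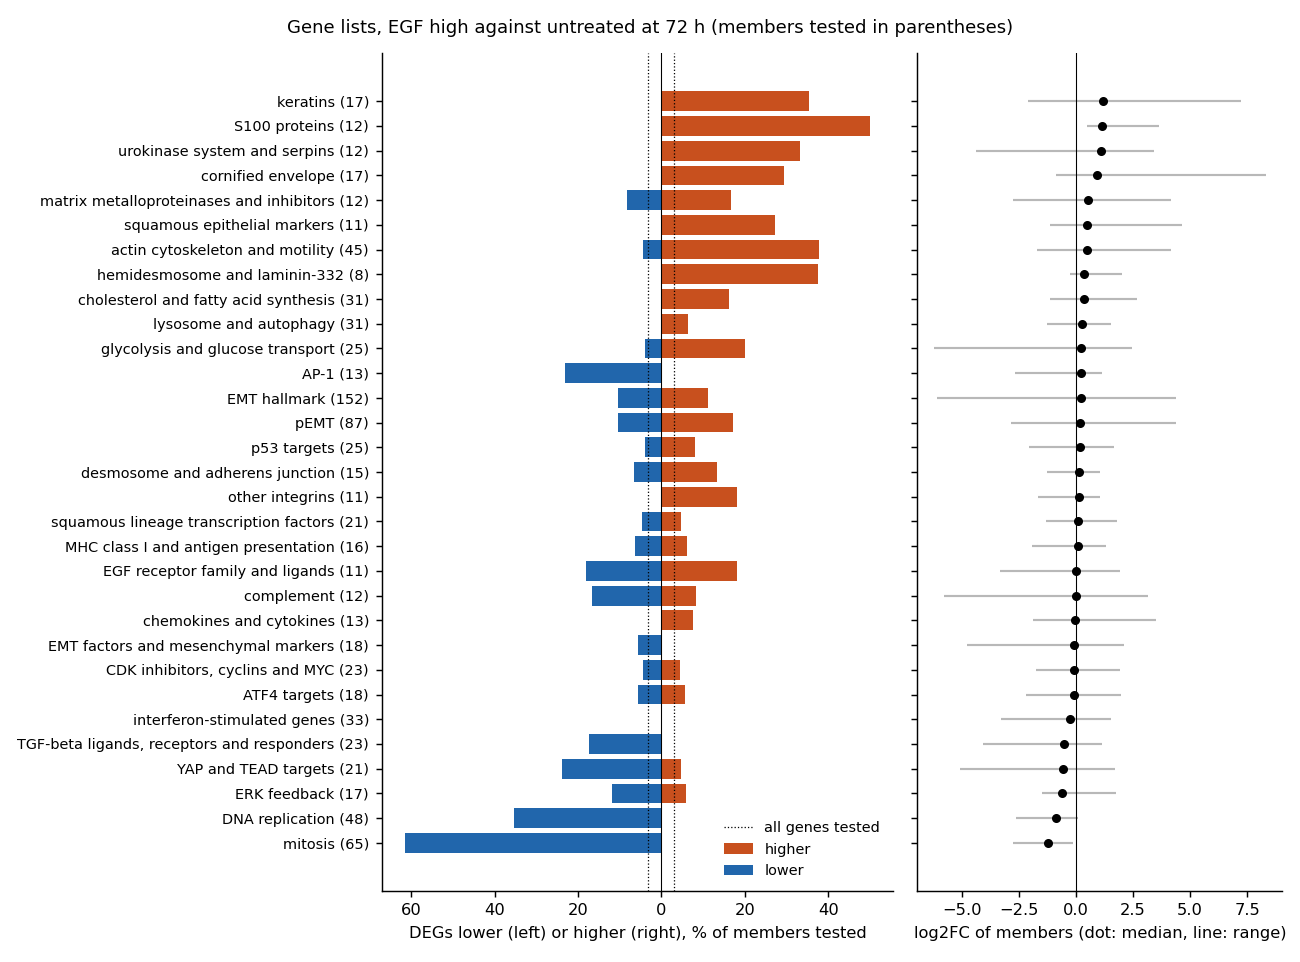
For each gene list, with the number of members tested in parentheses, bars on the left give the percentage of members called down (blue) or up (orange) at 72 h, with dotted lines at 3.16% and 3.04% for all genes tested, and the right side gives the median (dot) and range (line) of the members' log2FC. The whole range of the mitosis list lies below 0 with a median of -1.21, that of the S100 list lies above 0 with a median of 1.12, and no interferon-stimulated gene was called in this edgeR fit.

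The TGF-beta list holds ligands and receptors as well as responders of TGF-beta and BMP signalling. In it, 15 of 23 measured members had a negative log2FC, and 14 of 21 in the YAP list. Of all 15350 genes tested, 7981 did so. All 4 genes called in the TGF-beta list fell (17.4%, against 3.16% of all genes tested), 3 of them ID genes, which encode inhibitors of basic helix-loop-helix factors. ID2 fell from 36.7, 148 and 96.1 CPM to 7.46, 5.17 and 3.71 CPM (log2FC = -4.08 ± 0.63, adjusted p = 2.91e-05) and ID1 from 271, 414 and 331 CPM to 113, 66.2 and 121 CPM (log2FC = -1.76 ± 0.41, adjusted p = 0.00526). Their relative ID4, which is in no list, fell from 22.9, 55.9 and 55.2 CPM to 2.22, 1.78 and 0.856 CPM (log2FC = -4.75 ± 0.58, adjusted p = 8.11e-07), and ID3 had a log2FC of -1.60. Of 21 measured targets and members of the YAP pathway, 5 fell and 1 rose (23.8% and 4.76%, against 3.16% and 3.04% of all genes tested). CTGF (CCN2), a matrix-associated growth regulator, fell from 530.3, 334 and 479 CPM to 16.3, 42.3 and 68.1 CPM (log2FC = -3.41 ± 0.60, adjusted p = 2.15e-04). The muscle stress protein ANKRD1 fell from 21.95, 69.3 and 60.3 CPM to 2.33, 0.178 and 1.57 CPM (log2FC = -5.11 ± 0.89, adjusted p = 1.78e-04, with a log2FC of -5.72 without EGF high replicate 1). CYR61 (CCN1) stood at 726, 271 and 792 CPM and 17.03, 189.9 and 156 CPM (log2FC = -2.31 ± 0.71, adjusted p = 0.0407), while NT5E, the ectoenzyme CD73, rose from 141, 79.4 and 86.1 CPM to 280.4, 421 and 317 CPM (log2FC = 1.73 ± 0.38, adjusted p = 0.00256). YAP1 itself had a log2FC of 0.24. ID3 was not called without untreated replicate 2 or 3 or EGF high replicate 1 or 4 (adjusted p = 0.0512 to 0.14). CYR61 was not called without untreated replicate 1 or 3 or EGF high replicate 1 or 4 (adjusted p = 0.0728 to 0.187). The calls down became 2 in the TGF-beta list without EGF high replicate 1 and 3 in the YAP list without untreated replicate 1 or 3.

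Glucose transport and lipid synthesis held single strong changes. SLC2A3, the neuronal-type glucose transporter GLUT3, fell from 25.1, 58.6 and 27.4 CPM to 0.35, 0.178 and 0.856 CPM (log2FC = -6.24 ± 1.01, adjusted p = 6.02e-05, with a log2FC of -6.95 without EGF high replicate 4), the lowest log2FC among named genes. SLC2A1, the common transporter GLUT1, was not called (log2FC = -0.08, adjusted p = 0.943). In the glycolysis list, 5 of 25 rose and 1, SLC2A3, fell (20% and 4%, the latter near the 3.16% of all genes tested). Pyruvate kinase, PKM, rose from 328, 302 and 326 CPM to 924, 533 and 719 CPM (log2FC = 1.19 ± 0.27, adjusted p = 0.00374). Lactate dehydrogenase A, LDHA, rose from 320.0, 326 and 347 CPM to 1102, 836 and 671 CPM (log2FC = 1.39 ± 0.34, adjusted p = 0.00855). Of 31 genes of cholesterol and fatty acid synthesis, 5 rose (16.1%, against 3.04% of all genes tested) and none fell. Without EGF high replicate 1, or without a filter on low counts, 1 was called down. ELOVL6, which elongates fatty acids, stood at 7.26, 10.9 and 5.32 CPM and 67.3, 48.3 and 33.7 CPM (log2FC = 2.67 ± 0.46, adjusted p = 1.52e-04). The desaturase SCD stood at 1301, 974 and 1367 CPM and 2337, 4027 and 2908 CPM (log2FC = 1.35 ± 0.32, adjusted p = 0.00587). Fatty acid synthase, FASN, overlapped between groups (627, 646 and 391 CPM and 2024, 808 and 597 CPM, log2FC = 1.04 ± 0.32, adjusted p = 0.0434). LDHA was not called without EGF high replicate 1 (adjusted p = 0.0532). SCD was not called without untreated replicate 2 (adjusted p = 0.0566). FASN was not called without untreated replicate 1, 2 or 3 or EGF high replicate 1 (adjusted p = 0.0719 to 0.628, with a log2FC of 0.35 in the last case). The lists held 2 glycolysis calls up without EGF high replicate 1, untreated replicate 2 or untreated replicate 3 and 1 lipid call without untreated replicate 2, with 8 lipid calls without EGF high replicate 4.

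None of 33 measured interferon-stimulated genes was called by edgeR, with a median log2FC of -0.25, 1 member up and 1 down at an unadjusted p below 0.05, and 1 called up by DESeq2. In other settings 1 was called up against Fc, 1 up with the spread from the 6 libraries alone and 6 down without a filter on low counts. Among 13 measured chemokines and cytokines, 1 rose (7.69%, against 3.04% of all genes tested). This was IL1RN, the antagonist of the interleukin-1 receptor, which went from 8.28, 11.1 and 5.52 CPM to 144, 82.9 and 54.4 CPM (log2FC = 3.50 ± 0.61, adjusted p = 1.78e-04). Complement component C5 fell from 9.21, 21.8 and 13.5 CPM to 0, 0.535 and 0.285 CPM (log2FC = -5.80 ± 0.83, adjusted p = 1.04e-05, with a log2FC of -5.12 without EGF high replicate 1 and -6.61 without EGF high replicate 3). The complement shield CD59 rose from 127, 102 and 107 CPM to 367, 228 and 341 CPM (log2FC = 1.48 ± 0.20, adjusted p = 6.07e-06). The p53 target SFN, an adaptor of the 14-3-3 family common in squamous cells, rose from 577, 403 and 518 CPM to 1969, 1058 and 1755 CPM (log2FC = 1.67 ± 0.35, adjusted p = 0.00173), 1 of 2 risers among 25 p53 targets, of which 1 fell (8% up and 4% down). MHC class I and antigen presentation (1 up and 1 down of 16), ATF4 targets (1 and 1 of 18), lysosome and autophagy (2 and 0 of 31) and squamous lineage transcription factors (1 and 1 of 21) held 0% to 6.45% of their members in either direction, against 3.04% up and 3.16% down of all genes tested. Of the squamous lineage factors, 4 were called down against Fc. In that list 3 were called up without a filter on low counts or with the spread from the 6 libraries alone. The macrophage marker CD68 was called up at 1.02, 0 and 0.204 CPM untreated and 5.71, 7.49 and 11.6 CPM with EGF high (log2FC = 4.15 ± 1.30, adjusted p = 0.0461, with a log2FC of 6.12 without untreated replicate 1), while the pan-leukocyte PTPRC had no count in any of these libraries, and the 2 measured of 8 leukocyte markers summed to 0.204 to 1.72 CPM and 5.83 to 12.6 CPM. CD68 was not called without untreated replicate 2 or 3 or EGF high replicate 1, 3 or 4 (adjusted p = 0.0712 to 0.208).

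Several of the largest changes lay outside the lists. PDE2A, a phosphodiesterase of cyclic nucleotides, had 2 counts over the untreated and 373 over the EGF high libraries, a ratio of 184 after scaling by depth with a counting interval of 50.5 to 1523 (95%, exact, counting error only), and was called up (adjusted p = 1.24e-04). FAM83A, which binds RAF and supports EGFR signalling, rose from 2.7, 2.29 and 1.84 CPM to 102, 18.9 and 54.7 CPM (log2FC = 4.65 ± 0.75, adjusted p = 6.16e-05, with a log2FC of 3.99 without EGF high replicate 1). ARNT2, a partner of basic helix-loop-helix PAS factors, rose from 0.465, 0.382 and 0 CPM to 22.4, 14.98 and 3.85 CPM (log2FC = 5.40 ± 1.22, adjusted p = 0.00367, with a log2FC of 6.01 without untreated replicate 1). MYH16, a transcribed pseudogene of a jaw muscle myosin, stood at 0.93, 0 and 0 CPM and 19.01, 9.27 and 31.3 CPM (log2FC = 5.58 ± 1.02, adjusted p = 3.26e-04, with a log2FC of 10.00 without untreated replicate 1, where the remaining untreated libraries had no count, so that this value depends on the prior count). On the falling side, the carboxypeptidase-like CPVL stood at 18.9, 15.3 and 14.5 CPM untreated and 0, 0 and 0.856 CPM with EGF high (log2FC = -5.74 ± 0.83, adjusted p = 1.11e-05, with a log2FC of -5.07 without EGF high replicate 1 and -9.72 without EGF high replicate 4, where the remaining EGF high libraries had no count). PPP2R2B, a regulatory subunit of the phosphatase PP2A, fell from 66.4, 58.96 and 59.1 CPM to 2.8, 1.6 and 1.14 CPM (log2FC = -5.01 ± 0.87, adjusted p = 1.69e-04). The protocadherin FAT3 fell from 40.4, 56.9 and 24.3 CPM to 2.45, 1.96 and 0.714 CPM (log2FC = -4.54 ± 0.63, adjusted p = 6.07e-06). The matrix protein vitrin, VIT, fell from 25.2, 39.7 and 60.9 CPM to 0.35, 1.07 and 0.856 CPM (log2FC = -5.81 ± 0.86, adjusted p = 1.43e-05). PEG10, an imprinted gene derived from a retrotransposon, fell from 1151, 1124 and 1072 CPM to 393, 402 and 319 CPM (log2FC = -1.59 ± 0.27, adjusted p = 1.42e-04).

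Little of the 72 h response had been called at 6 h, when EGF high had its own untreated control and no library in common. At 6 h, 391 genes were called (2.55%), 206 up (1.34%) and 185 down (1.21%). Of these, 43 were up at both times, 9.23% of the DEGs up at 72 h and 20.9% of those at 6 h. Another 33 were down at both, 6.8% and 17.8%. Of the DEGs down at 72 h, 5 were called up at 6 h, and none of the DEGs up at 72 h was called down at 6 h. Many uncalled genes had the later sign nonetheless. Of the 466 DEGs up at 72 h, 74.2% were higher with EGF at 6 h (median log2FC 0.31), and 76.7% of the 485 DEGs down were lower (median -0.41), where 46% of all genes tested were higher. KRT6A (log2FC = 3.11 ± 0.66, adjusted p = 0.00625), SPRR2A (log2FC = 3.22 ± 0.79, adjusted p = 0.0165) and AREG (log2FC = 2.16 ± 0.44, adjusted p = 0.00463) were among the genes called up at both times.

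The difference between the responses at 72 h and 6 h, tested as such, was called for 155 genes (1.01%), 76 higher (0.495%) and 79 lower (0.515%) at 72 h. With 1 library left out there were 86 to 262, the lowest without untreated 6 h replicate 4 and the highest without EGF high 72 h replicate 1. Of the 466 DEGs up at 72 h, 57 had a higher response at 72 h than at 6 h, and of the 485 DEGs down, 59 had a lower one. The test of the difference holds the same 72 h libraries that chose these DEGs. Their directions in it were thus largely set by that choice and are not independent evidence. ITGB4 had a log2FC of -0.25 at 6 h and of 2.02 at 72 h (difference log2FC = 2.27 ± 0.41, adjusted p = 0.00166). CD44 changed by 0.62 and 2.11 (difference log2FC = 1.49 ± 0.34, adjusted p = 0.015), and SPRR1B by 1.34 and 5.81 (difference log2FC = 4.46 ± 0.59, adjusted p = 3.02e-05). In the other direction, EGFR had a log2FC of 0.44 at 6 h and of -1.03 at 72 h (difference log2FC = -1.47 ± 0.25, adjusted p = 0.00106), and CAV1 of 0.18 and -1.73 (difference log2FC = -1.91 ± 0.30, adjusted p = 3.07e-04). Of the 65 mitosis genes, 10 had already been called down at 6 h, where 1.21% of all genes tested were. The median log2FC of the list was -0.67 at 6 h against -1.21 at 72 h. In this list, 1 of the 65 had a difference between times called lower (KIF23, log2FC = -1.86 ± 0.37, adjusted p = 0.00406).

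**Figure D4:**
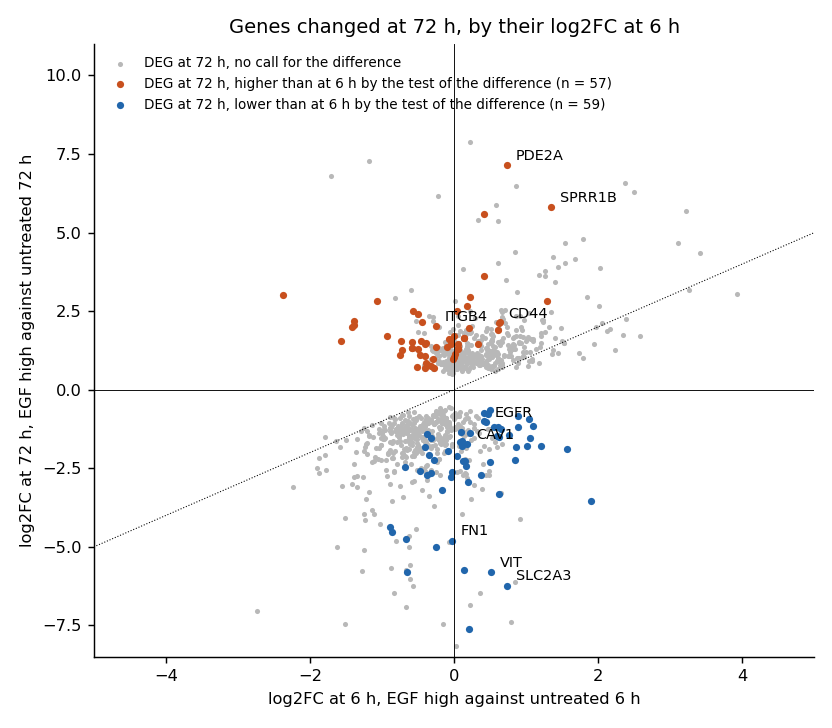
Each point is 1 DEG of EGF high at 72 h, with its log2FC against untreated at 6 h on the x axis and at 72 h on the y axis, a dotted line where the 2 are equal, and colours for the 57 genes higher and the 59 genes lower by the test of the difference between times. FN1 lies at -0.03 and -4.80 and ITGB4 at -0.25 and 2.02, so that both had little response at 6 h. The test of the difference shares the 72 h libraries that chose the DEGs.

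The untreated cells changed between 6 h and 72 h as well, so levels at both times are given here. FN1 stood at 63.3 ± 17.5 CPM in untreated cells at 6 h (SD, n = 3) and at 582 ± 61.9 CPM at 72 h (SD, n = 3), against 20.8 ± 6.18 CPM with EGF high at 72 h (SD, n = 3). SLC2A3 stood at 0.608 ± 0.378 CPM, 37.03 ± 18.7 CPM and 0.462 ± 0.353 CPM in these groups. EGFR stood at 1583 ± 122 CPM, 4100.2 ± 561 CPM and 2003 ± 314 CPM. With EGF high at 72 h the mean of FN1 was thus below that of untreated cells at 6 h. The libraries of SLC2A3 overlapped between these 2 groups, near the level of 3 counts. The mean of EGFR lay between the 2 untreated groups. SPRR1B went the other way, with 34.5 ± 8.32 CPM, 9.62 ± 0.982 CPM and 536 ± 116 CPM, and so stood above the untreated cells of both times.

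Fc-treated cells, which shared no library with the comparison of EGF high against untreated, served to follow serum-free control cells over time. Between 6 h and 72 h of Fc, 346 genes changed (2.25%), 191 up and 155 down, or 1.24% and 1.01% of genes tested. Among the 485 DEGs down with EGF high at 72 h, 52 rose and 14 fell over this time, with a median log2FC of 0.33. Among the 466 DEGs up, 6 rose and 31 fell, with a median of -0.27, where the median of all genes was 0.03. FOSB (log2FC = 3.46 ± 0.45, adjusted p = 9.67e-06), TIMP3 (log2FC = 3.08 ± 0.54, adjusted p = 8.53e-04), ID2 (log2FC = 3.01 ± 0.58, adjusted p = 0.00283) and CLDN1 (log2FC = 1.76 ± 0.30, adjusted p = 5.61e-04) fell with EGF high and rose with time under Fc. CAV1 (log2FC = -0.11 ± 0.22, adjusted p = 0.859) and CTGF (log2FC = 1.33 ± 0.56, adjusted p = 0.208), which also fell with EGF high, were not called over time under Fc, and mitosis genes such as CDK1 (log2FC = -1.02 ± 0.28, adjusted p = 0.0416) and KIF2C (log2FC = -1.27 ± 0.26, adjusted p = 0.00467) fell there too. This comparison was chosen after the data had been seen.

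With Fc in place of untreated cells as the control at 72 h, 1076 genes were called (7.01%), 519 up (3.38%) and 557 down (3.63%), and 350 of the 466 DEGs up and 377 of the 485 DEGs down were among them. The 2 comparisons share the EGF high libraries. Against Fc, SPRR1B had a log2FC of 5.46, LAMB3 of 1.98, FN1 of -4.97 and EGFR of -1.09.

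Many of the genes called with EGF high lay closer to control levels with EGF low. EGF high differed from EGF low at 72 h in 573 genes (3.73%), 311 higher (2.03%) and 262 lower (1.71%) with EGF high. With 1 library left out there were 292 to 532, the lowest without EGF low replicate 2, and 241 with the spread from the 7 libraries alone. Of the DEGs up, 251 of 466 were also higher with EGF high than with EGF low, and 229 of 485 DEGs down were lower, in a comparison that shares the EGF high libraries. LAMB3 stood at 109 ± 35.99 CPM with EGF low (SD, n = 4) and 308 ± 40.1 CPM with EGF high (SD, n = 3, difference log2FC = 1.501 ± 0.36, adjusted p = 0.0101), and SPRR1B at 26.2 ± 15.6 CPM and 536 ± 116 CPM (difference log2FC = 4.35 ± 0.41, adjusted p = 1.33e-09). For EGFR the values were 3275 ± 516 CPM and 2003 ± 314 CPM (difference log2FC = -0.71 ± 0.17, adjusted p = 0.0113). KRT19 (log2FC = 0.72 ± 0.23, adjusted p = 0.0773) and AREG (log2FC = 1.14 ± 0.41, adjusted p = 0.118) did not pass the test between doses. Against Fc, a comparison without libraries in common with that of EGF high against untreated, EGF low gave no DEG by edgeR (0%, with 706 genes at an unadjusted p below 0.05). There, 77.7% of the 466 DEGs up were higher (median log2FC 0.21) and 84.1% of the 485 DEGs down lower (median -0.32), where 50.8% of all genes were higher (median 0.01).

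With EpEX added to the same dose of EGF, mean levels lay between those of control cells and of EGF high alone for the 3 genes given here. Its libraries overlapped the untreated ones for ITGB4 (747 to 2059 against 827 to 1105 CPM) and KIF23 (21.2 to 33.5 against 25.6 to 43.3 CPM). For FN1 they did not (101 to 394 against 541 to 654 CPM). EpEX was added as an Fc fusion, and no Kyse30 group received EGF high with Fc alone. A contribution of the Fc part was thus not tested. EGF high alone differed from EGF high plus EpEX at 72 h in 550 genes (3.58%), 264 higher (1.72%) and 286 lower (1.86%) with EGF alone. With 1 library left out there were 187 to 475, the lowest without EGF high plus EpEX replicate 2, and 194 with the spread from the 6 libraries alone. Of the DEGs up, 220 of 466 were higher and 242 of 485 DEGs down lower with EGF alone, again with the EGF high libraries shared. ITGB4 stood at 1318 ± 672 CPM with EpEX added (SD, n = 3) and 3917 ± 689 CPM without (SD, n = 3, difference log2FC = 1.57 ± 0.30, adjusted p = 0.00121), and FN1 at 227 ± 151 CPM and 20.8 ± 6.18 CPM (difference log2FC = -3.44 ± 0.65, adjusted p = 8.26e-04). KIF23 stood at 26.6 ± 6.26 CPM and 8.5 ± 0.337 CPM (difference log2FC = -1.64 ± 0.28, adjusted p = 2.62e-04). Against Fc, EGF high plus EpEX gave no DEG by edgeR (0%, with 601 genes at an unadjusted p below 0.05). Again, 77.3% of the DEGs up were higher (median log2FC 0.22) and 74.2% of the DEGs down lower (median -0.23), where 50.1% of all genes were higher.

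**Figure D5:**
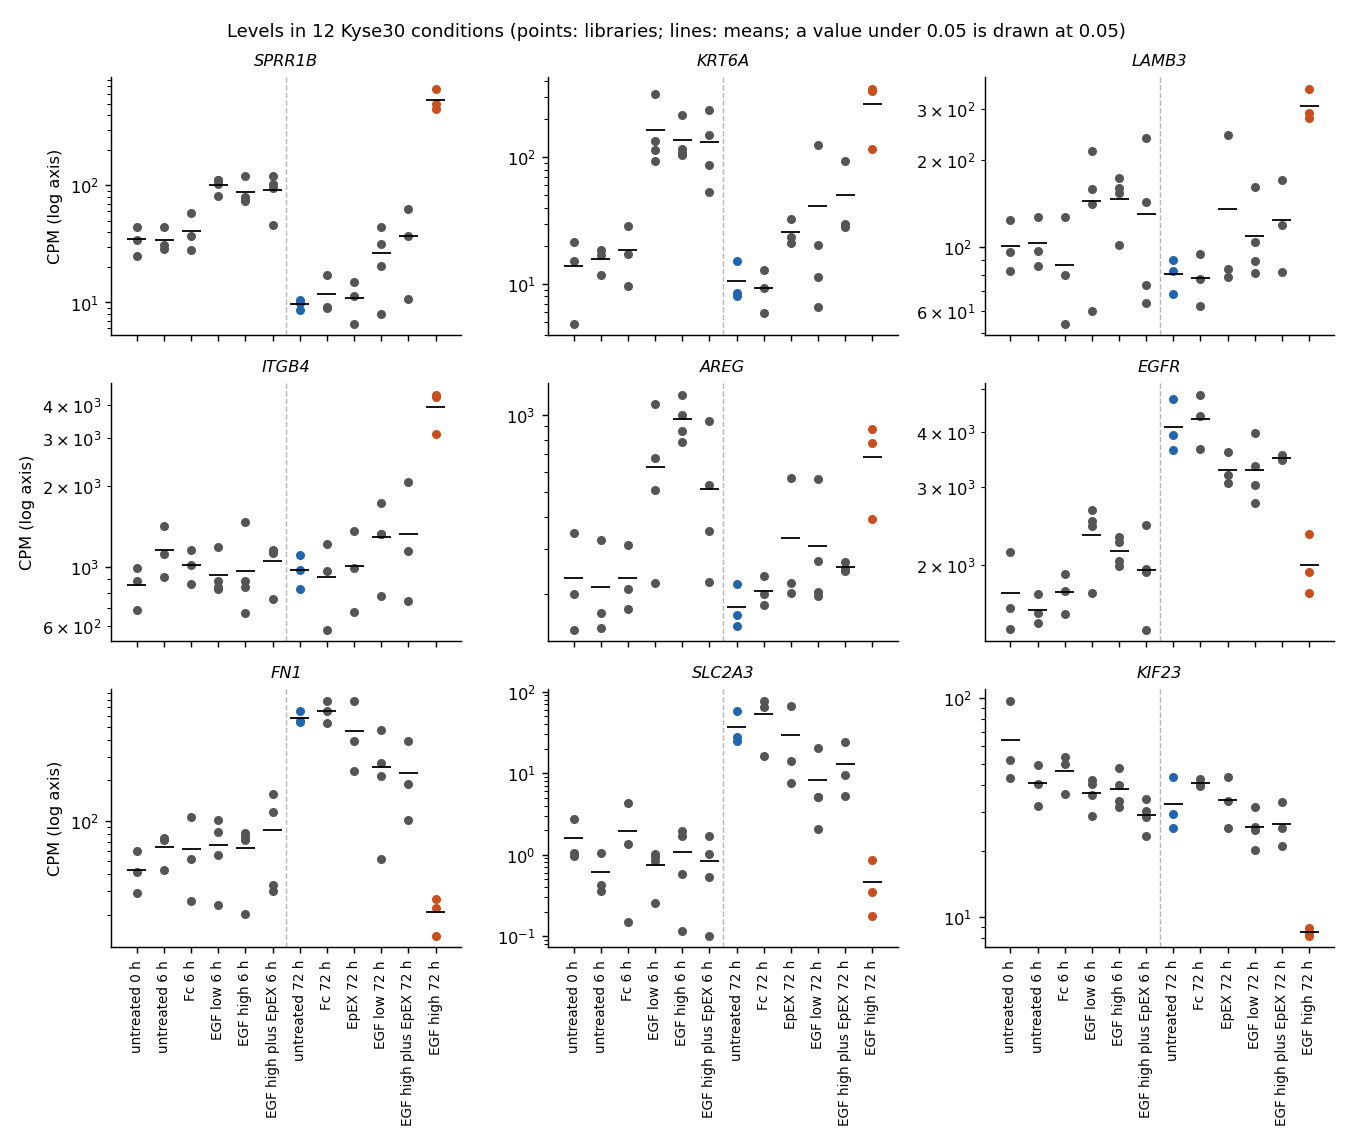
Each panel shows 1 gene with a point for every library (CPM, log axis) in 12 conditions of Kyse30 cells, from untreated cells at 0 h to EGF high at 72 h, and a line at each mean. EGF high at 72 h stands above every other condition in mean for SPRR1B, LAMB3 and ITGB4, and below every other 72 h condition for FN1, SLC2A3, EGFR and KIF23.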

How the data were processed

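Libraries were made with the QuantSeq 3′ FWD kit. Per the submitters' processing notes, the authors aligned reads with STAR to GRCh38/hg38 and counted reads per gene with HTSeq, and deposited these raw counts, 1 file per library. The aligner version and the strand setting of counting are not given in the sources used here. Rows for reads without a gene were left out, and these rows listed 31.5% to 37% of all reads in the files of the 6 libraries as not unique. The 43 Kyse30 libraries were fitted together, with a coefficient for each condition, by edgeR 4.0.16 (R 4.3.3, TMM factors, filterByExpr with a minimum count of 10, quasi-likelihood test), which left 15350 of 58395 genes. P-values were adjusted by Benjamini-Hochberg over all of these. Printed CPM are counts scaled by the TMM-adjusted library total. Errors beside a log2FC are approximate standard errors, the absolute log2FC divided by the square root of the quasi-likelihood F statistic. Library totals set the precision, and intervals cover counting error only. Symbols came from GENCODE 29.

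Genes named were those with the 10 highest and 10 lowest log2FC among DEGs without overlap between groups and with a mean of at least 5 CPM, the 5 largest rises and 5 largest falls in mean CPM, and in each of 35 lists up to 4 DEGs with the largest change plus markers that define the list. Other list members given with values were named after their values were seen. These were ACTB, ACTN1, ANXA2, CAV2, CDK1, EVPL, FSCN1, GINS2, KIF23, KIF2C, RAC2, RHOC, S100A11, SERPINB13 and VCL, and members given by log2FC alone. Members and lists were chosen with earlier results of these data known, and the comparisons of Fc with time, and of EGF high, EGF low and EGF high plus EpEX with Fc, after the data had been seen. Alternatives were DESeq2 1.42.0, RLE size factors, other filters, a replicate block, Fc as control, only the libraries compared, and each library left out. FaDu libraries were not used here, and single genes that the rule or lists would name are not reported here.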

Additional observations from a re-analysis of the deposited data

Results flagged for a closer look

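For 25 named genes the response to EGF high differed between 72 h and 6 h by a test of the difference itself (edgeR, adjusted over all genes tested). The 10 with a higher log2FC at 72 h, given as the value at 72 h less that at 6 h, were PDE2A (6.41), MYH16 (5.16), SPRR1B (4.46), S100P (3.21), SLC2A12 (3.13), ELOVL6 (2.50), ITGB4 (2.27), PHLDA3 (1.60), CD44 (1.49) and SQSTM1 (1.10). The 15 with a lower log2FC at 72 h were SLC2A3 (-6.97), VIT (-6.32), CPVL (-5.88), C5 (-5.14), FN1 (-4.77), PPP2R2B (-4.75), ID4 (-4.08), NRG1 (-3.93), FAT3 (-3.69), SEMA3D (-3.47), TIMP3 (-2.74), CAV1 (-1.91), EGFR (-1.47), TK1 (-1.42) and CDK6 (-1.25). At 6 h, SLC2A3 averaged 0.608 CPM in untreated and 1.08 CPM in EGF high cells. These levels are near 3 counts, so a fall at 6 h could hardly have been seen.

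Among 36 groups of 4 libraries of the genes shown by condition, 7 held a library far from the other 3. The nominal rate of the rule is about 1 in 20 for independent groups. The groups here share libraries between genes, so the count cannot be set against that rate. EGF high 6 h replicate 4 stood at 120 CPM for SPRR1B (others 73.3 to 78.9), at 214 CPM for KRT6A (others 104 to 117) and at 20.1 CPM for FN1 (others 72.4 to 80.8). At 72 h, EGF low replicate 4 stood at 126 CPM for KRT6A (others 6.57 to 20.4) and EGF low replicate 2 at 20.3 CPM for SLC2A3 (others 2.05 to 5.16). For ITGB4, EGF low 6 h replicate 4 stood at 1181 CPM (others 829 to 884) and EGF high plus EpEX 6 h replicate 2 at 760 CPM (others 1126 to 1150). The groups of 3 at 72 h were too small for this rule.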

How the results depend on the processing

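The 951 DEGs of EGF high at 72 h became 1264 by DESeq2 (950 shared), 947 with RLE size factors, 1115 without a filter on low counts, 1001 with a mean of at least 5 CPM, 738 with an absolute log2FC above 1, 1076 with Fc as the control (727 shared), 1592 with untreated and Fc libraries joined as the control, and 502 (291 up and 211 down, 461 shared) when the fit held only the libraries of the groups compared, with 475 to 778 when 1 library was left out. In that smaller fit the share of DEGs that were up was 58% against 49%. The difference between 72 h and 6 h was called for 310 genes by DESeq2, 401 without the filter and 86 to 262 with 1 library left out. EGF high against EGF low gave 241 genes from their own libraries alone and 292 to 532 with 1 left out, and EGF high against EGF high plus EpEX gave 853 by DESeq2, 194 from their own libraries alone and 187 to 475 with 1 left out. The cause was not tested, beyond the fewer libraries of the smaller fits. With the replicate number as a replicate block, the counts were 977 at 72 h, 170 for the difference between times, 725 between doses and 604 with EpEX, and this fit is given here only, since untreated and EGF high shared the numbers 1 and 3, whose deviations correlated at -0.02 and 0.06 (0.0633 over 217 pairs of the same number, -0.0216 over 635 others). The 123 named genes gave 1589 values under the alternatives, of which 178 lost and 9 gained a call and none changed direction with a call. With the block, EPCAM was called up (adjusted p = 0.0363) and MMP10 down (adjusted p = 0.0132). List counts, 910 under the alternatives, moved by more than 1.5 times in 155, down in 107 and up in 48. With 3 libraries a group, 3 counts correspond to 0.286 to 0.621 CPM, and differences near that level were not detectable.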
